A study of Saccharomyces cerevisiae with 4 samples.

Results

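The genes described here encode the proteins of the small subunit of the cytosolic ribosome of the budding yeast Saccharomyces cerevisiae. They were taken by name, as every gene on the array whose symbol is RPS, a number and, where there is one, the letter A or B of a duplicated gene. This gave 54 of the 5539 genes named on the array, each printed as 2 spots. They comprise 23 pairs of paralogs, 7 genes with a single copy (RPS2, RPS3, RPS12, RPS13, RPS15, RPS20 and RPS31) and RPS14B, whose paralog RPS14A was not analysed here. Cells of a divided culture were either given 30 µg/ml Congo red for 2 h or left untreated for the same time, in rich medium at 24 °C. All cells were of BY4741, a laboratory haploid with the a mating type and without HIS3, LEU2, MET17 and URA3, so treated and untreated cells carry the same deletions. Congo red is a dye that binds chitin and glucan and disturbs assembly of the cell wall. Total RNA of both was hybridised together on 4 2-colour arrays, and channel 2 held the treated RNA on arrays 1 and 3, as channel 1 did on arrays 2 and 4.

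The small subunit reads messenger RNA. Its head, beak, body and platform are built on the small ribosomal RNA, with the path of the messenger running between head and body. In yeast most of its proteins are encoded by gene pairs that give nearly the same protein. Transcription of these genes is tied to growth, through the factors Rap1, Fhl1, Ifh1 and Sfp1 and the TORC1 kinase, and it is known to be reduced in many kinds of stress.

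Values are log2 ratios of the 2 channels of an array, averaged over the 2 spots of a gene, with the median of each array set to 0. They were read as Congo red over untreated. The labels name neither dyes nor a direction, and this reading is likely but not settled. It rests on 7 known target genes of the cell wall stress route (NCW2, PST1, CWP1, KDX1, PIR3, PRM5 and CRH1), whose median was 1.96, 1.52, 2.11 and 2.19 on arrays 1 to 4 and which all lay above 0 on each array. These genes were chosen with earlier results of these data known, which limits their weight for the direction. SLT2, also on that list, had values on arrays 2 and 4 alone, at 0.55 and 1.95, and was not tested. Over all genes the arrays of opposite channel assignment were nearly unrelated, with a mean Pearson r of -0.04, against 0.30 between arrays 1 and 3 and 0.08 between arrays 2 and 4 (across genes, which are not independent replicates). Nothing in the labels tells whether the arrays stem from different cultures, and every p-value therefore reflects only how far these arrays varied, which may be technical. A ratio gives no level, so neither the labelled strain nor the order of the genes by abundance could be checked. Values were given for 11931, 11609, 12297 and 12586 of the 12800 spots on arrays 1 to 4, and with 4 arrays the precision is limited.

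All 54 small subunit genes had a value on each of the 4 arrays. Their spots were close, with a median difference between the 2 spots of a gene of 0.05, 0.04, 0.04 and 0.04 on arrays 1 to 4, against 0.16, 0.25, 0.16 and 0.15 for all genes printed as 2 spots. The SD over the 54 genes was 0.30, 0.37, 0.35 and 0.30, so these genes differed among themselves by more than their spots did. In 2 genes the spots lay more than 1 log2 unit apart. RPS19A had spots 2.06 apart on array 2 and 1.60 apart on array 4, and RPS30A had spots 1.28 apart on array 4. RPS30A on array 1 and RPS1B on array 2 rest on 1 spot each. No spot of these genes was at the upper limit of the deposited values.

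On arrays 1 and 3 the small subunit genes lay below the array median almost as a body, and on arrays 2 and 4 most lay slightly above it. Their median was -0.73 on array 1 and -0.64 on array 3, against 0.15 on array 2 and 0.17 on array 4. The numbers below 0 were 53 of 54 on array 1, 51 on array 3, 19 on array 2 and 17 on array 4. On array 1 the genes ran between -1.27 for RPS29A and 0.07 for RPS19A, and on array 3 between -1.19 for RPS29A and 0.26 for RPS9A. On array 2 they ran between -0.95 for RPS1B (1 spot) and 0.68 for RPS29A. On array 4 they ran between -0.86 for RPS19A and 0.73 for RPS30A, both of them genes whose spots disagreed there. RPS29A was thus the lowest of the 54 on both arrays with treated RNA in channel 2 and the highest on array 2.

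**Figure D1:**
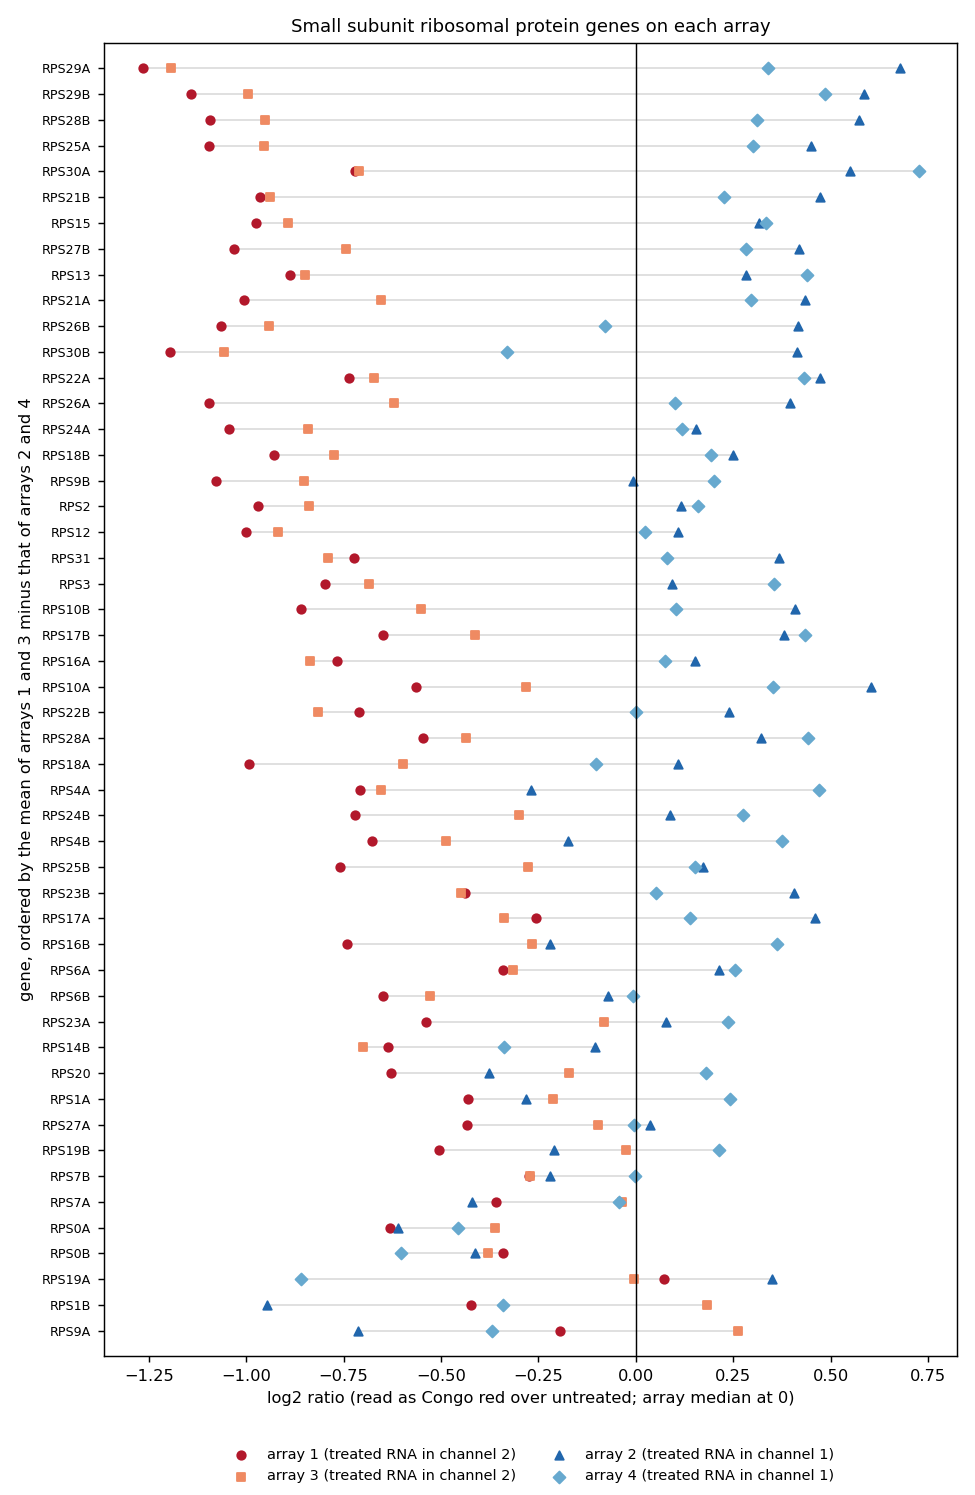
Log2 ratio (horizontal axis, taken as Congo red over untreated, with each array's median at 0) of 50 of the 54 small subunit genes (rows) on each array (4 marker shapes), ordered by the mean of arrays 1 and 3 minus that of arrays 2 and 4. For 41 of the genes drawn both red markers lie left of both blue ones, and at the foot of the plot RPS0B and RPS9A run the other way.

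In the mean of the 4 arrays the genes lay a little below the array median. Their median was -0.27, or 0.831-fold, against -0.01 for the 5489 genes tested, and 52 of 54 were below 0, where 52% of all genes were. The array medians of the list had an SD of 0.49, which is larger than this mean. An exact sign-flip test over 4 arrays cannot go below a two-sided p of 0.125 and was not used. No small subunit gene passed the limma threshold of 0.05 after Benjamini-Hochberg adjustment over all genes, where 0.0911% of all genes did (5 genes). In simulated data a mean of 1 log2 unit passed it in 0 of 200 genes, so means of this size could hardly be called. At an unadjusted p under 0.05 there were 3 of 54, all lower, where 2.37% of all genes were lower at that p. Without array 1 the median of the small subunit genes was -0.09 and 41 were below 0, and without array 3 it was -0.16 with 46 below 0. Without array 2 it was -0.41 with 54 below 0, and without array 4 it was -0.42 with 53 below 0. Over all genes tested the median in these fits ran between -0.03 and 0.02. The size of the mean of the small subunit genes thus depends on how many arrays of each channel assignment it holds.

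Among the genes with the lowest means were RPS30B, RPS12, RPS14B and RPS0A. RPS30B encodes a very small protein of the body near the entry of the messenger path. Its values were -1.19 and -1.06 on arrays 1 and 3, against 0.41 and -0.33 on arrays 2 and 4, with a mean of -0.54 ± 0.31 (SE, n = 4, limma adjusted p = 0.71). Both arrays with treated RNA in channel 2 lay below both others, and array 4 lay below 0 as well. RPS12, a protein of the beak, was at -1.001 and -0.92 on arrays 1 and 3, against 0.11 and 0.02 on arrays 2 and 4, with a mean of -0.45 ± 0.26 (limma adjusted p = 0.71). RPS14B, a platform protein that in yeast also restrains its own gene's splicing, was at -0.64 and -0.70 on arrays 1 and 3, against -0.11 and -0.34 on arrays 2 and 4. Its mean was -0.45 ± 0.16 (SE, n = 4, limma adjusted p = 0.63, unadjusted p = 0.043).

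RPS0A and RPS0B differed from most of the small subunit genes, since they lay below 0 by a like amount on every array. They encode the protein Rps0, which sits on the back of the subunit and is needed for the late maturation of its RNA. RPS0A was at -0.63 and -0.36 on arrays 1 and 3, against -0.61 and -0.46 on arrays 2 and 4, with a mean of -0.51 ± 0.13 (SE, n = 4, limma adjusted p = 0.53, unadjusted p = 0.013). RPS0B was at -0.34 and -0.38 on arrays 1 and 3, against -0.41 and -0.60 on arrays 2 and 4, with a mean of -0.43 ± 0.13 (limma adjusted p = 0.59, unadjusted p = 0.023). The 2 genes and RPS14B are the 3 with an unadjusted p under 0.05. In all, 8 genes were below 0 on every array, among them RPS0A, RPS0B, RPS6B, RPS7A, RPS7B and RPS14B. That is 14.8% of the small subunit genes, against 8.6% of all genes tested. No small subunit gene was above 0 on every array, where 539 of the 5489 genes tested were above 0 on every array that valued them.

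The highest means were at about 0 and came from values of opposite sign. RPS10A, a beak protein, was at -0.57 and -0.28 on arrays 1 and 3, against 0.60 and 0.35 on arrays 2 and 4, with a mean of 0.03 ± 0.25 (SE, n = 4, limma adjusted p = 0.98). RPS17A, a head protein, had a mean of 0.00 ± 0.19 from -0.26 and -0.34 on arrays 1 and 3, against 0.46 and 0.14 on arrays 2 and 4. RPS30A was at -0.72 and -0.71 on arrays 1 and 3, against 0.55 and 0.73 on arrays 2 and 4, with a mean of -0.04 ± 0.33. Its array 1 value is from 1 spot and its array 4 value from spots 1.28 apart. Without array 4 the mean of RPS30A was -0.29 ± 0.73 (SD, n = 3), so its place among the highest is in doubt. None of the 3 means over 4 arrays differed detectably from 0, though no value of the 3 genes was nearer to 0 than 0.14. RPS6A, whose protein is phosphorylated under TORC1 control in growing cells, was at -0.34 and -0.32 on arrays 1 and 3, against 0.21 and 0.25 on arrays 2 and 4, with a mean of -0.05 ± 0.18.

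The difference between the channel assignments, arrays 1 and 3 minus arrays 2 and 4, was larger in these genes than their mean. It had a median of -0.88 over the 54 genes, against 0.05 over all genes tested, and lay below 0 in 47 of 54, where it did so in 46.7% of all genes. In 44 genes (81.5%) both arrays with treated RNA in channel 2 lay below both with treated RNA in channel 1, where 29.5% of the 5124 genes valued on all arrays did so. The reverse order was found in RPS0B and RPS9A (3.7%), where 1445 of those 5124 genes showed it. The other 8 small subunit genes overlapped, among them RPS0A, RPS1A, RPS1B, RPS7A, RPS19A, RPS19B and RPS20. No gene at all passed the limma threshold for this difference, so 0 of 54 and 0% of all genes were called (smallest limma adjusted p = 0.25). In simulated data a difference of 2 log2 units passed it in 0 of 200 genes. The simulated spread of a gene holds its split between the assignments, so this cannot tell what size of difference could be called here. Since each assignment has 2 arrays, the lack of calls says little. At an unadjusted p under 0.05 the difference was lower in 31 of 54 small subunit genes and higher in 0. Of all genes 9.25% were lower at that p, and 404 of 5489 were higher. With 2 arrays in each assignment an exact permutation test cannot go below a two-sided p of 0.333. The labels separate arrays 1 and 3 from 2 and 4 by the channel of the treated RNA alone, and channel and any other property that these arrays share cannot be told apart. That RNA of ribosomal protein genes splits by assignment was known from an earlier account of these data, so its recurrence here is no independent support.

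RPS29A and RPS29B, which encode a tiny zinc-binding protein of the head, had the largest difference. RPS29A was at -1.27 and -1.19 on arrays 1 and 3, against 0.68 and 0.34 on arrays 2 and 4, a difference of -1.74 ± 0.23 (SE, 2 arrays against 2, limma adjusted p = 0.25). RPS29B was at -1.14 and -0.996 on arrays 1 and 3, against 0.59 and 0.48 on arrays 2 and 4, a difference of -1.60 ± 0.21. In both genes the gap between the assignments was several times the distance between arrays of the same assignment. RPS28B, a small head protein near the exit of the messenger path, was at -1.09 and -0.95 on arrays 1 and 3, against 0.57 and 0.31 on arrays 2 and 4, a difference of -1.46 ± 0.22. RPS25A, a head protein, was at -1.10 and -0.95 on arrays 1 and 3, against 0.45 and 0.30 on arrays 2 and 4, a difference of -1.40 ± 0.21. The difference of RPS30A was -1.35 ± 0.21, from values that include 1 spot on array 1 and disagreeing spots on array 4. RPS21B, which lies beside Rps0 in the subunit, was at -0.97 and -0.94 on arrays 1 and 3, against 0.47 and 0.23 on arrays 2 and 4, a difference of -1.30 ± 0.22. For all of these 6 genes the limma adjusted p was 0.25.

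The smallest differences were in RPS7A, RPS0A, RPS0B and RPS7B. RPS7A, of the body, was at -0.36 and -0.04 on arrays 1 and 3, against -0.42 and -0.04 on arrays 2 and 4, a difference of 0.03 ± 0.27 (SE, 2 arrays against 2, limma adjusted p = 0.95). RPS7B was at -0.27 and -0.27 on arrays 1 and 3, against -0.22 and -0.002 on arrays 2 and 4, a difference of -0.16 ± 0.21 (limma adjusted p = 0.68). The differences of RPS0A and RPS0B were 0.04 ± 0.23 and 0.15 ± 0.21. RPS7B still counts among the 44 genes that did not overlap, by a gap of 0.05, while RPS7A and RPS0A overlapped.

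Across the 54 genes the means of the assignments ran against each other. Genes lowest on arrays 1 and 3 tended to be highest on arrays 2 and 4, with a Pearson r of -0.57 and a Spearman's rho of -0.47 between the assignment means, against -0.06 and -0.13 over all 5489 genes tested. Over the 78 genes of the large cytosolic subunit they were -0.61 and -0.58, so the trait is not particular to the small subunit. These are correlations across genes of the same arrays, given as a description. Arrays 1 and 3 ordered the 54 genes alike (Pearson r = 0.85), arrays 2 and 4 less closely (Pearson r = 0.45), and pairs of arrays of opposite assignment gave r between -0.63 and -0.32. The mean of arrays 1 and 3 ran between -1.23 and 0.03 over the genes, with a median of -0.70. The mean of arrays 2 and 4 ran between -0.64 and 0.64, with a median of 0.15.

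**Figure D2:**
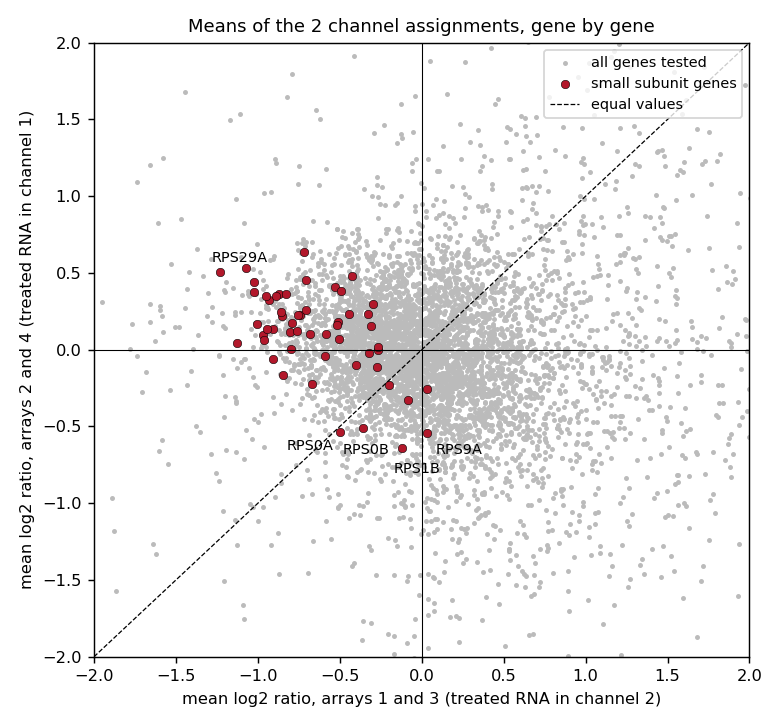
Mean log2 ratio of arrays 1 and 3 (horizontal axis) against that of arrays 2 and 4 (vertical axis) for the 54 small subunit genes (red) and all genes tested (grey), with 224 genes outside the axis limits of 2. Most red points lie left of 0 and above the dashed line of equal values, while RPS0A, RPS0B, RPS1B and RPS9A are among those below that line.

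The 7 genes without a paralog were alike in the mean and, but for RPS20, in the difference. Their means ran between -0.45 for RPS12 and -0.25 for RPS20, with a median of -0.27, against -0.26 for the 46 genes of the pairs. RPS2 and RPS3 encode proteins that line the entry of the messenger path. RPS2 was at -0.97 and -0.84 on arrays 1 and 3, against 0.12 and 0.16 on arrays 2 and 4, and RPS3 was at -0.80 and -0.69 on arrays 1 and 3, against 0.09 and 0.35 on arrays 2 and 4. RPS13, a body protein that takes part in a contact with the large subunit, was at -0.89 and -0.85 on arrays 1 and 3, against 0.28 and 0.44 on arrays 2 and 4. RPS15, a head protein needed for export of the subunit from the nucleus, was at -0.97 and -0.89 on arrays 1 and 3, against 0.32 and 0.33 on arrays 2 and 4. RPS31, which is made as a fusion to ubiquitin, was at -0.72 and -0.79 on arrays 1 and 3, against 0.37 and 0.08 on arrays 2 and 4. These 5 genes and RPS12 did not overlap between the assignments, and their differences ran between -1.26 for RPS15 and -0.96 for RPS3. RPS20, a head protein, was at -0.63 and -0.17 on arrays 1 and 3, against -0.38 and 0.18 on arrays 2 and 4, so its assignments overlapped, and its difference was -0.30 ± 0.33 (SE, 2 arrays against 2).

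Sorted by place in the subunit, the 21 genes of head proteins had a median mean of -0.26 and the 33 genes of body and platform proteins one of -0.29. The median difference between the assignments was -0.94 for the head and -0.69 for body and platform. Array medians of the head genes were -0.77 and -0.60 on arrays 1 and 3, against 0.32 and 0.21 on arrays 2 and 4. Those of the body and platform genes were -0.71 and -0.65 on arrays 1 and 3, against 0.04 and 0.10 on arrays 2 and 4. This grouping was made after the values were seen and was not tested.

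Within the 23 paralog pairs the A gene lay above the B gene in the mean in 15. Coding sequences within a pair are nearly identical, so the spots of both genes may share signal and the values of single paralogs are uncertain. The median size of the A minus B difference on an array was 0.29, 0.20, 0.28 and 0.25 on arrays 1 to 4, against 0.30, 0.34, 0.35 and 0.26 between small subunit genes of different proteins. Paralogs were thus about as far apart as genes of different small subunit proteins on arrays 1 and 4, and somewhat nearer to each other on arrays 2 and 3. In 4 pairs, RPS6, RPS10 and RPS30 among them, A lay above B on every array, and no pair had B above A on every array. An exact sign-flip test of 1 pair cannot go below a two-sided p of 0.125.

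RPS6A and RPS10A lay above their B paralogs by nearly the same amount on each array. The RPS6 difference was 0.31, 0.29, 0.21 and 0.26 on arrays 1 to 4, a mean of 0.27 ± 0.04 (SD, n = 4). The RPS10 difference was 0.29, 0.20, 0.27 and 0.25, a mean of 0.25 ± 0.04 (SD, n = 4). These pairs had the steadiest differences of the 23, whose SDs ran up to 0.95. RPS6B itself was at -0.65 and -0.53 on arrays 1 and 3, against -0.07 and -0.01 on arrays 2 and 4, and RPS10B was at -0.86 and -0.55 on arrays 1 and 3, against 0.41 and 0.10 on arrays 2 and 4. Each of these genes kept the split between the assignments, with B shifted down from A as a whole.

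RPS30 had the largest mean difference, 0.50 ± 0.39 (SD, n = 4), with 0.47, 0.14, 0.35 and 1.06 on arrays 1 to 4. Array 4, where the spots of RPS30A disagreed, weighs on it, and without that array the mean was 0.32 ± 0.17 (SD, n = 3). The smallest mean differences were -0.02 ± 0.19 for RPS7 and 0.02 ± 0.77 for RPS19 (SD, n = 4). The RPS19 value averages 0.58, 0.56, 0.02 and -1.07 on arrays 1 to 4 and is near 0 by cancellation. RPS19 belongs to the head, and mutations of the human gene cause Diamond-Blackfan anaemia. RPS19A was at 0.07 and -0.004 on arrays 1 and 3, against 0.35 and -0.86 on arrays 2 and 4, and its spots disagreed on both of the last arrays. RPS19B was at -0.50 and -0.02 on arrays 1 and 3, against -0.21 and 0.21 on arrays 2 and 4.

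The RPS9 paralogs, singled out after their values were seen, ran in opposite ways. Rps9 is a body protein known for its part in the accuracy of decoding. RPS9A was at -0.19 and 0.26 on arrays 1 and 3, against -0.71 and -0.37 on arrays 2 and 4, a difference between the assignments of 0.57 ± 0.29 (SE, 2 arrays against 2, limma adjusted p = 0.37). RPS9B was at -1.08 and -0.85 on arrays 1 and 3, against -0.01 and 0.20 on arrays 2 and 4, a difference of -1.06 ± 0.23 (limma adjusted p = 0.25). RPS9A minus RPS9B was therefore 0.88 and 1.11 on arrays 1 and 3, against -0.70 and -0.57 on arrays 2 and 4. RPS27A minus RPS27B also changed sign, at 0.60 and 0.65 on arrays 1 and 3, against -0.38 and -0.29 on arrays 2 and 4. Both RPS27 genes were lower on arrays 1 and 3, however, so they split the same way and by unlike amounts. Their assignment differences were -0.28 ± 0.23 for RPS27A and -1.24 ± 0.23 for RPS27B (SE, 2 arrays against 2). RPS1B, of the platform, was among the genes whose assignments overlapped, at -0.42 and 0.18 on arrays 1 and 3, against -0.95 and -0.34 on arrays 2 and 4, though the value of array 2 is from 1 spot.

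**Figure D3:**
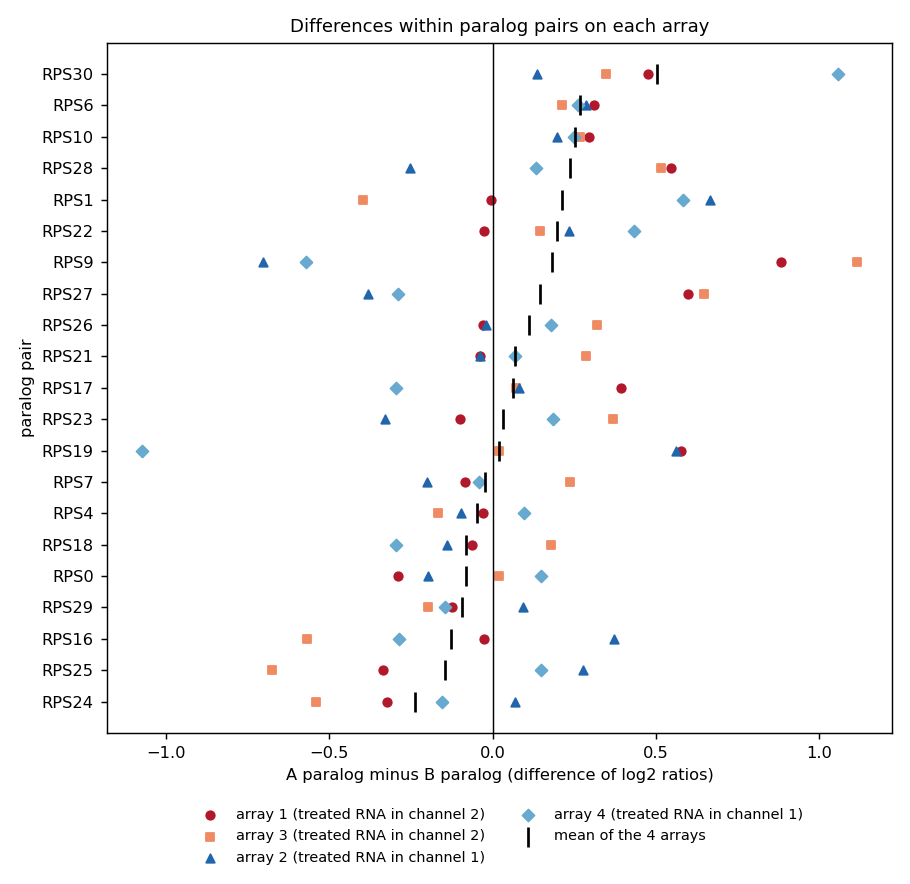
Log2 ratio of the A gene minus that of the B gene (horizontal axis) for 21 of the 23 paralog pairs (rows) on each array (4 marker shapes), with black bars at the mean of the arrays. The markers of RPS6 and RPS10 lie close together right of 0, and those of RPS9 and RPS27 lie on opposite sides of 0 for the channel assignments.

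RPS14B and RPS22A were the only small subunit genes that neighbour each other in the gene order of the R64 assembly. RPS22A was at -0.74 and -0.67 on arrays 1 and 3, against 0.47 and 0.43 on arrays 2 and 4, a difference of -1.16 ± 0.20 (SE, 2 arrays against 2), where that of RPS14B was -0.45 ± 0.22. RPS14B lay below 0 on all arrays and RPS22A on arrays 1 and 3 alone.

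The proteins of the large subunit of the cytosolic ribosome gave array medians close to those of the small subunit. Over their 78 genes the median was -0.81 and -0.63 on arrays 1 and 3, against 0.14 and 0.13 on arrays 2 and 4. In 62 of the 78 both arrays 1 and 3 lay below both others, where 29.5% of the genes valued on all arrays did so. The assignment difference was lower at an unadjusted limma p under 0.05 in 48 of the 78, against 9.25% of all genes. The small subunit median minus the large subunit median was 0.08, 0.02, -0.01 and 0.04 on arrays 1 to 4, a mean of 0.03 ± 0.04 (SD, n = 4), so the subunits did not differ by more than the spread between arrays. In the mean 75 of 78 large subunit genes lay below 0 and 0 passed the limma threshold, with RPL3 at -0.45 ± 0.16 and RPL7B at -0.41 ± 0.16 (SE, n = 4, limma adjusted p = 0.63 and 0.64). The small subunit of the mitochondrial ribosome, with 29 genes tested, had medians of -0.33 and -0.16 on arrays 1 and 3, against 0.16 and -0.06 on arrays 2 and 4. The cytosolic small subunit minus the mitochondrial one was -0.40 and -0.47 on arrays 1 and 3, against -0.01 and 0.22 on arrays 2 and 4, a mean of -0.16 ± 0.33 (SD, n = 4). That mean difference was within the spread between arrays. Among the mitochondrial genes PET123 was at -0.36 ± 0.14 and MRPS28 at 0.30 ± 0.14 (SE, n = 4, limma adjusted p = 0.64 and 0.67).

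Genes that act with the small subunit but lie outside the name pattern did not share its split as a list. These 20 genes encode assembly factors, chaperones of single proteins, modifying enzymes and Asc1, and their medians were -0.12 and -0.05 on arrays 1 and 3, against -0.07 and -0.08 on arrays 2 and 4. None passed the limma threshold in the mean, and 14 of 20 lay below 0 there. STM1, which binds ribosomes and keeps them intact in starved cells, was at -0.29 ± 0.17, and ARD1, the catalytic subunit of an acetyltransferase of protein amino termini, had a mean of -0.27 ± 0.20 (SE, 4 arrays, with limma adjusted p of 0.71 and 0.74). ASC1, the 1 stable protein of the small subunit without an RPS name, was named here after its values were seen. It was at -0.45 and -0.74 on arrays 1 and 3, against -0.15 and 0.67 on arrays 2 and 4, which is the order shown by most RPS genes.

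Regulators of ribosomal protein and ribosome biogenesis genes gave, as a list, array medians of the opposite order to the small subunit genes. Over 13 tested genes the medians were 0.33 and 0.16 on arrays 1 and 3, against -0.16 and -0.19 on arrays 2 and 4. In 8 of the 13 both arrays 1 and 3 lay above both others, where 1445 of the 5124 genes valued on all arrays did so. IFH1 and RAP1, named here after their values were seen, were among the regulators that did not show this order. IFH1 was at -0.03 and 0.04 on arrays 1 and 3, against 0.90 and 0.26 on arrays 2 and 4, the order of most RPS genes. RAP1 had an assignment difference of -0.04 ± 0.52 (SE, 2 arrays against 2). In the mean 7 regulators lay above 0 and 6 below, and none passed the limma threshold. TOD6 and DOT6 are repressors of ribosome biogenesis genes. TOD6 was at 0.56 and 0.72 on arrays 1 and 3, against 0.58 and -0.02 on arrays 2 and 4, with a mean of 0.46 ± 0.18 (SE, n = 4, limma adjusted p = 0.64). DOT6 was at -0.14 and 0.09 on arrays 1 and 3, against -0.83 and -0.33 on arrays 2 and 4, with a mean of -0.30 ± 0.20 (limma adjusted p = 0.74). SFP1, an activator of ribosomal protein genes, had values on arrays 3 and 4 alone, at 0.28 and -0.21, and was not tested.

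**Figure D4:**
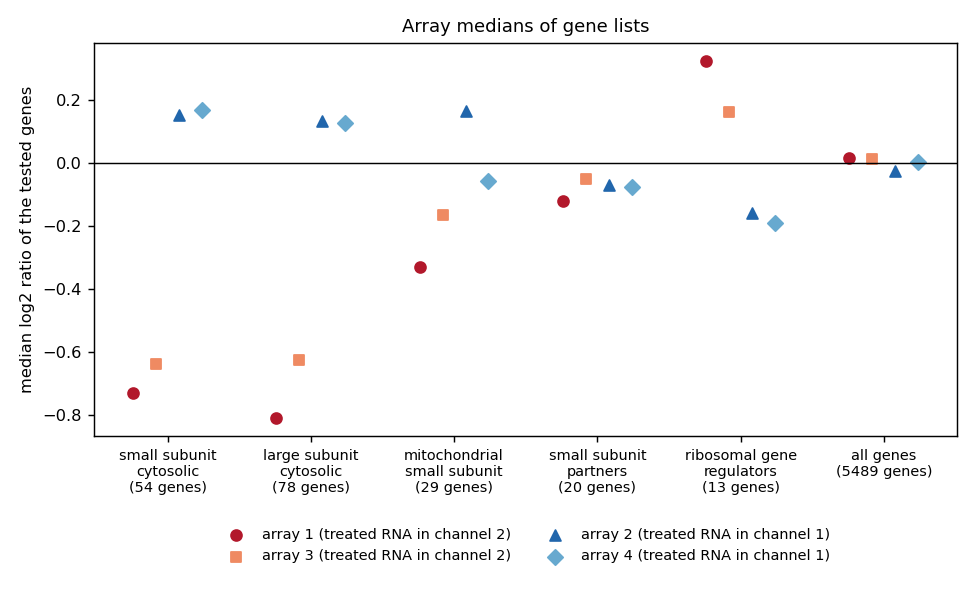
Median log2 ratio (vertical axis, array median at 0) of the tested genes of each list on each array (4 marker shapes). The cytosolic subunits share medians of -0.81 to -0.63 on arrays 1 and 3 and 0.13 to 0.17 on arrays 2 and 4, and the regulators lie the other way round.

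A term for the channel assignment takes the split out of the spread around the mean. With it the means of the 54 genes are the same by design, and 19 of 54 (35.2%) were lower at an unadjusted p under 0.05, where 5.76% of all genes were. None passed after adjustment over all genes (smallest limma adjusted p = 0.33). Had arrays 2 and 4 been deposited with the opposite sign, the median of the means would be -0.44 with 47 of 54 genes below 0, and that of the assignment difference -0.53. Turning the sign exchanges the mean and the difference by construction, so the turned reading restates the assignment difference and is no second check. It would also put the 7 cell wall stress genes below 0 on arrays 2 and 4. The median of the small subunit genes lay below 0 as deposited and with this turn, and no single small subunit gene was called. The sign under this turn is no support for a decrease, since turning the other arrays instead would reverse it by construction. That other turn was not run.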

How the data were processed

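The authors deposited 1 log2 ratio for each spot of an array. This was read from the values: they are signed, and for 99.1% of them within a ratio of 0.05 to 20 the ratio itself is a number of 3 decimals. Per the labels, each array held treated and untreated RNA; how the authors scanned, corrected or normalized the arrays is not given in the sources used here. As deposited, the arrays had medians of 0.31, 0.02, -0.46 and 0.37. Gene names came from an old annotation of the platform, which gives 1 symbol for 11138 of 12800 spots and none for the others, and all 54 members were found in the RefSeq gene table of the R64 assembly.

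Each array was centred on its median, spots of a gene were averaged, and genes valued on 3 or more arrays (5489) were fitted with limma 3.58.1 in R 4.3.3 (lmFit and eBayes, two-sided). The mean was tested against 0 over 4 arrays, and the assignment difference in a model with 1 mean for each channel assignment. Adjustment was by Benjamini-Hochberg over all genes, with a threshold of 0.05. SE is limma's moderated standard error. The code was tested on simulated data, drawn with each gene's spread around its mean over the arrays, which holds any split between the assignments. At 1 log2 unit 0 of 200 genes were recovered in the mean and 0 of 197 in the difference. At 2 log2 units 138 of 198 were recovered in the mean and 0 of 200 in the difference. Members, lists and tests were chosen with earlier results of these data known. Named members were those with the 6 lowest and 4 highest means, the 6 largest and 4 smallest assignment differences, the 4 largest and 2 smallest paralog differences, and single-copy genes; from each list, the genes past the threshold (up to 3), or otherwise the 2 with the smallest p. A direction would have been settled by a mean correlation between arrays of opposite assignment beyond 0.3 on either side of 0. Values of a few members are not reported here, though they count in every total. The planned search for Rap1 and Abf1 motifs was not run, since no sequences were used here.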

Additional observations from a re-analysis of the deposited data

How the results depend on the processing

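No small subunit gene passed the limma threshold in the mean under the 17 alternatives, or in the assignment difference under the 14 that apply to it (smallest limma adjusted p over all of them 0.33 and 0.13). Of all genes tested, 0 to 11 passed in the mean, the most being 11 of 4882 with spots more than 1 apart left out. In the difference 79 of 5489 genes passed without centring. With 4 arrays the threshold is hard to pass for changes of the size seen in the small subunit genes. The lack of calls among them is therefore no sign of stability. The median of the means stayed below 0, between -0.44 with the sign of arrays 2 and 4 turned and -0.09 without array 1. The median assignment difference stayed below 0 too. It was -1.15 without centring, -1.04 with quantile normalization, -0.79 with arrays centred within runs of 400 spots and -0.53 with the sign of arrays 2 and 4 turned, and -0.94 to -0.78 when each array was left out in turn. The cause of these shifts was not tested, except that turning the sign exchanges the mean and the difference by construction. The signs of both turned medians are therefore no check, since turning the other arrays instead, which was not run, would reverse them. Without centring the median of all genes in the difference was -0.23, where it was 0.05 with centring. The count of small subunit genes lower in the difference at an unadjusted limma p under 0.05 was 31, where 9.25% of all genes were. It was 19 with the sign turned, the same count as in the mean with a channel term, where 5.76% of all genes were. Without centring it was 2. The share of all genes was not counted there, so whether that fall is particular to the small subunit genes was not tested. The sign of a mean changed in at most 11 of 54 genes, without array 1. Without signal strengths, dim spots could not be told from bright ones. No paired analysis was possible because the arrays form 1 group and each array already pairs treated with untreated RNA.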
